A study of Mus musculus with 8 samples.

Results

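The 5 genes described here, Rora, Maf, Batf, Irf4 and Runx1, encode transcription factors of T helper 17 (Th17) cells. They were taken by name and make up 5 of the 16649 genes in the deposited count matrix, in which all 5 were found. The study measured single-cell RNA from CD4+ T cells of the mouse spleen that carried an intact Gpr65 gene (WT) or a Gpr65 knockout (KO). Gpr65 encodes a proton-sensing G-protein-coupled receptor. The cells came from female mice, labelled as the GPR65 strain and 10 weeks old, and were harvested on day 3 of culture under Th17 or Th22 conditions. All cultures contained IL-1b (20 ng/ml) and IL-23 (20 ng/ml). The Th17 condition added 25 ng/ml of IL-6, and the Th22 condition 40 ng/ml of IL-6 and 400 nM of FICZ, which activates the aryl hydrocarbon receptor. The 4 groups, WT Th17, KO Th17, WT Th22 and KO Th22, had 2 libraries each. The labels do not say whether the libraries of a group came from separate animals, so p-values reflect only how far these libraries spread, and that spread may be technical. They also do not say which part of Gpr65 was deleted, or whether T cells other than CD4+ cells were removed before culture.

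After cells with under 500 detected genes or over 10% mitochondrial counts were left out, 101688 of 104660 cells remained. Each library kept 9969 to 15119 cells and 33826527 to 58895019 unique molecular identifier (UMI) counts. Gpr65 was at 0.89 to 1.58 counts per 1000000 UMIs (CPM) in the 4 KO libraries and at 50.8 to 72.8 CPM in the 4 WT libraries, in the direction of the labels. All 9 CD4 T cell markers examined were detected, with a summed level of 3946 to 5446 CPM per library. Of the 100483 distinct cell barcodes, 1199 occurred in more than 1 library, and any pair of libraries shared 23 to 67 of them.

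Th17 cells are CD4+ helper T cells that secrete IL-17A and IL-17F and act at mucosal barriers and in autoimmune inflammation. BATF is a small leucine-zipper protein of the AP-1 family that pairs with JUN proteins. BATF and JUN recruit IRF4, a factor induced by T cell receptor signals, to composite DNA elements, and this complex occupies many Th17 genes early in differentiation. RORα, the product of Rora, is a nuclear receptor that binds ROR elements and acts directly on the Il17a and Il17f locus. c-MAF is a large MAF leucine-zipper protein that promotes Il10 and Il21 and tempers parts of the inflammatory program. RUNX1 binds DNA with its partner CBFβ, and can raise or restrain Il17 transcription depending on the factors it meets.

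The promoters of Il17a and Il17f are printed because transcripts of these genes define the cells compared below, and because motifs of these factor families can be read in them. RefSeq promoter windows on build GRCm38.p6 were searched over the 250 bases before each start on both strands. The motifs were a ROR element (AGGTCA), a RUNX motif (TGTGGT), an AP-1 motif (TGANTCA), an interferon-response element bound by IRF proteins (GAAA repeated after any 2 bases) and a MAF core motif (TGCTGA). Capitals mark the matches. The Il17a window lies at chr1:20730655-20730904 on the plus strand. The Il17f window lies at chr1:20784271-20784494 on the minus strand, within the annotated transcript Il17f-202, and 26 bases farther upstream that fall in an exon of that transcript are not printed.
Il17a: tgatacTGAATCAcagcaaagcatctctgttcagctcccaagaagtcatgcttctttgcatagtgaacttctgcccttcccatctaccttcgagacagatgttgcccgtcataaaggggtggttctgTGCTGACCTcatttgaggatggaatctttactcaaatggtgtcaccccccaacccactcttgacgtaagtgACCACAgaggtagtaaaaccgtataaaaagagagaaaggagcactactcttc
Il17f: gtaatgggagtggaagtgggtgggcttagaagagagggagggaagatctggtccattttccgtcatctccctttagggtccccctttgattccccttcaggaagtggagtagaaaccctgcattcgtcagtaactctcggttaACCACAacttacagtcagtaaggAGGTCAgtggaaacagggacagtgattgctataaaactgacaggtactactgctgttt
The ROR element was matched once in each window, starting 120 bases before the Il17a start and 58 bases before the Il17f start. Among all 32851 promoter windows, 14.0% held this element. The RUNX motif was also matched in both, at 52 and 81 bases, against 14.0% of all windows. The Il17a window further held an AP-1 motif at 244 bases (6.75% of all windows) and a MAF core motif at 123 bases (16.1% of all windows). In Il17a the MAF core motif overlapped the ROR element, so the run TGCTGACCT covers both. The interferon-response element, held by 2.98% of all windows, was matched in neither. These matches describe letters and show no binding. Of the 5 genes, 4 had an entry in the promoter table, and in their windows these motifs were matched only in that of Batf, which held the RUNX motif at 149 and 56 bases before the start.

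Transcripts of all 5 genes were detected in every library, but each in a minority of cells. A UMI of Irf4 was found in 20.8% of the kept cells, of Batf in 19.6%, of Maf in 10.2%, of Runx1 in 9.25% and of Rora in 7.79%. None of the deposited clusters is known to lack these genes, so no background from free RNA could be set beside these shares, and most comparisons below use summed counts. In the annotation (GENCODE M21), Batf lies at chr12:85686669-85709087 on the plus strand and Irf4 at chr13:30749226-30766976 on the plus strand. Rora spans chr9:68653786-69388246 on the plus strand, Runx1 spans chr16:92601466-92826149 on the minus strand, and Maf lies at chr8:115682942-115707794 on the minus strand. Maf overlaps Gm15655, a gene on the opposite strand with a row of its own in the matrix. No source used here says whether the counting used strand, so reads of the pair may not be told apart.

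To ask how the 5 genes differ in cells that make Il17 transcripts, cells with at least 1 UMI of Il17a or Il17f were called Il17-positive. There were 4442 such cells, and 97246 cells with none were called Il17-negative. The positive share was 8.19% and 8.12% in WT Th17, 5.30% and 5.69% in WT Th22, 1.76% and 3.08% in KO Th17, and 1.81% and 2.36% in KO Th22. Within each library, counts were added up for positive and for negative cells, and the totals were compared with edgeR's quasi-likelihood test with the library as a block. Of 11600 genes tested, 34.8% passed an adjusted p of 0.05, 17.1% higher and 17.6% lower in positive cells. Of the 5 genes, 3 were higher (Rora, Batf and Irf4), 1 was lower (Maf), and Runx1 did not pass. So large a share of all genes passed that the count of members says little by itself, and the values of each gene follow.

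**Figure D1:**
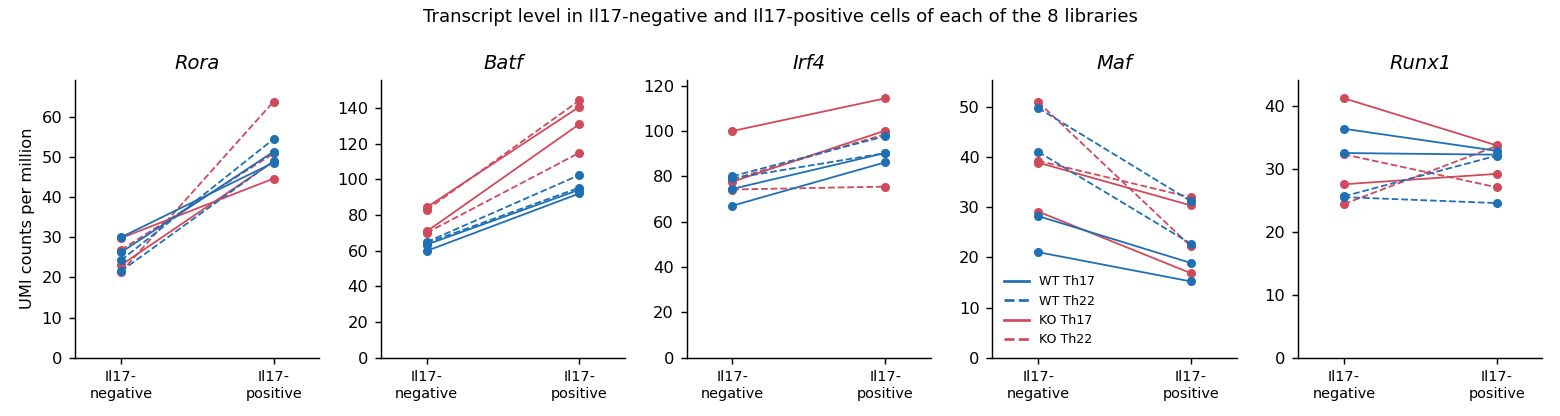
CPM levels of the 5 genes in the Il17-negative (left) and Il17-positive (right) cells of each library; each line is 1 of the 8 libraries, blue for WT and red for KO, solid for Th17 and dashed for Th22 cultures. Rora, Batf and Irf4 lie higher in the positive cells of all 8 libraries, Maf lies lower in all 8, and the lines of Runx1 cross.

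Rora showed the widest difference of the 5. Its level in positive cells ranged from 44.6 to 63.8 CPM with a median of 49.9, and in negative cells from 21.3 to 30.0 CPM with a median of 25.2. The lowest positive value lay above the highest negative value, and the ratio within a library ran from 1.5 in KO Th17 replicate 1 to 2.99 in KO Th22 replicate 2. The fitted difference was 1.07 ± 0.07 on the log2 scale (SE, edgeR adjusted p = 3.2e-13), a 2.10-fold higher level. Among all genes tested, 7.66% were higher in the positive cells of all 8 libraries. The share of all genes whose ranges did not overlap was not counted.

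Batf, the AP-1 partner of the JUN proteins, was next. In positive cells it ranged from 92.0 to 144.1 CPM with a median of 108.6, and in negative cells from 59.8 to 84.3 CPM with a median of 67.4. The ranges of the classes did not overlap, and the ratio stayed between 1.48 and 1.85 in the 8 libraries. How many of all genes separate in this way was not counted. The fitted difference was 0.72 ± 0.04 (log2, SE, edgeR adjusted p = 1.9e-24), a 1.65-fold higher level.

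Irf4, which BATF and JUN recruit to DNA, differed less. In positive cells it ranged from 75.5 to 114.4 CPM with a median of 94.0, and in negative cells from 67.0 to 100.0 CPM with a median of 78.1. The ranges overlapped, but within each of the 8 libraries the positive cells were higher, by a ratio of 1.02 in KO Th22 replicate 1 to 1.29 in KO Th17 replicate 1. The fitted difference was 0.30 ± 0.04 (log2, SE, edgeR adjusted p = 1.1e-08).

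Maf went the other way. In positive cells it ranged from 15.2 to 32.0 CPM with a median of 22.5, and in negative cells from 21.1 to 51.0 CPM with a median of 39.1. Its level was lower in the positive cells of all 8 libraries, as were 10.2% of all genes tested, and the ratio ran from 0.435 to 0.814. The fitted difference was -0.62 ± 0.07 (log2, SE, edgeR adjusted p = 3.8e-11). Runx1 was at 24.6 to 33.7 CPM in positive and 24.4 to 41.2 CPM in negative cells, higher in the positive cells of 3 libraries. Its fitted difference was 0.06 ± 0.07 (log2, SE, edgeR adjusted p = 0.51), with a 95% interval from -0.07 to 0.20 that includes 0.

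Positive cells were deeper, with median UMI counts of 3194 to 6147 per library against 2325.5 to 4115 in negative cells. Deposited cluster 2, the cluster led by Il17a, Il17f and Il22, held 55.2% to 66.8% of them. Within cluster 2 alone, Rora was higher in positive cells by 0.61, Batf by 0.40 and Maf lower by -0.45 on the log2 scale, all with an adjusted p under 0.05, while Irf4 no longer passed (0.07, adjusted p = 0.47). Among cells outside cluster 2 the differences were 0.46 for Rora, 0.37 for Batf, 0.18 for Irf4 and -0.37 for Maf, and all 4 passed. With cells thinned to 1500 UMIs before the classes were made, the differences were 1.27 for Rora, 0.83 for Batf, 0.38 for Irf4 and -0.54 for Maf. The numbers of all genes called in these fits are given in the last section, without their shares of the genes tested. The calls of these genes therefore say little by themselves. The summed γδ and cytotoxic cell markers stood at 34.7 to 132.0 CPM in positive and 57.8 to 122.3 CPM in negative cells, and the CD4 T cell markers at 3660 to 5116 and 3953 to 5473 CPM. Of 10 γδ and cytotoxic markers tested, 6 fell in positive cells, where 17.6% of all genes did, with a list median of -0.79 on the log2 scale. Gzmc, a granzyme gene, fell by 1.69, and the γδ receptor genes Tcrg-C2 and Trdc by 1.47 and 1.12. In this list 0 rose with edgeR, at an unadjusted p under 0.05 or with DESeq2. Of 9 CD4 T cell markers 7 also fell, from 0.30 for Trbc2, a chain of the αβ receptor, to 0.08 for Cd3g, and 0 rose by the same 3 counts. The Tcrg-C1 call ended in 4 and the Cd3g call in 3 of the 8 fits without 1 library. The part of these marker levels in the result was not tested.

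The levels of the 5 genes, but not of all genes, were also set out by the number of Il17 UMIs in a cell, as a description. Over the 8 libraries, the mean level of Rora was 24.3 ± 3.78 CPM (SD, n = 8) in cells with 0 Il17 UMIs, 35.0 ± 3.81 with 1, 66.2 ± 16.6 with 2, and 78.9 ± 12.8 with 3 or more. Batf went from 67.0 ± 8.90 CPM (SD, n = 8) through 101.3 ± 23.7 and 131.2 ± 30.9 to 146.8 ± 34.6. Irf4 went from 75.6 ± 11.3 CPM (SD, n = 8) through 93.3 ± 17.6 and 102.1 ± 18.4 to 106.1 ± 9.71. The libraries' ranges in the first and last class did not overlap for Rora (18.6 to 30.0 and 63.5 to 96.5 CPM) or Batf (56.1 to 84.6 and 109.1 to 190.3 CPM), and overlapped for Irf4 (62.8 to 100.4 and 94.7 to 123.6 CPM). Maf was at 35.5 ± 9.30, 27.2 ± 8.28, 26.5 ± 11.4 and 20.4 ± 5.48 CPM (SD, n = 8), and Runx1 at 29.5 ± 6.48, 30.6 ± 5.57, 34.6 ± 11.7 and 33.3 ± 4.11 CPM. The class with 2 UMIs held 669 cells, and as few as 22 in a library.

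**Figure D2:**
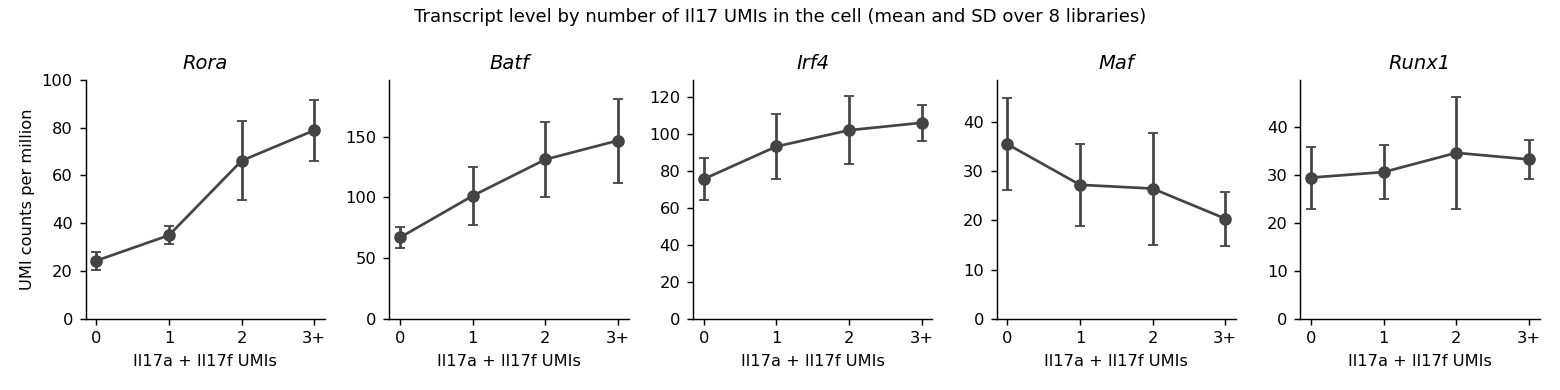
Mean level in CPM of each gene (vertical axis) in cells with 0, 1, 2 or 3 and more Il17a and Il17f UMIs (horizontal axis), with bars for the SD over 8 libraries. Rora goes from 24.3 to 78.9 CPM and Batf from 67.0 to 146.8 CPM along the classes, Maf from 35.5 to 20.4 CPM, and Runx1 stays between 29.5 and 34.6 CPM.

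Read in the other direction, at a fixed depth of 1500 UMIs per cell, the share of Il17-positive cells was 2.66% ± 1.69 (SD, n = 8) among cells without a Rora UMI, 6.05% ± 3.54 with 1 and 15.4% ± 5.95 with 2 or more. Both classes with Rora lay above the class without it in all 8 libraries, although the last held 159 cells in all. Batf gave 2.59%, 4.54% and 9.24%, with its later classes above its first in 8 and 7 of 8 libraries. Irf4 gave 2.70%, 3.51% and 6.34%, above its first class in 7 of 8 libraries each time. Runx1 rose too, with 2.77%, 3.46% and 7.6%, above its first class in 7 and 6 of 8 libraries. Its last class held 120 cells. With 2 or more UMIs the libraries ran from 0% to 19.05% for Batf, 1.84% to 14.5% for Irf4 and 0% to 15.8% for Runx1. For Maf the share was 2.84% ± 1.79 (SD, n = 8) without a UMI and 1.85% ± 1.15 with 1, above the first class in 2 of 8 libraries. With 2 or more Maf UMIs it was 3.42% ± 5.57, from 358 cells, above the first class in 3 libraries. Cells with UMIs of 2 of the 5 genes were Il17-positive in 5.93% ± 3.43 (SD, n = 8), against 2.41% ± 1.53 in cells with none, and higher in all 8 libraries. With UMIs of 3 or more of the 5 the share was 11% ± 17 (SD, n = 8), from 263 cells, higher in 5 of 8 libraries and from 0% to 50% across them. Both the gene's UMIs and the Il17 classes of this paragraph were counted after thinning. Genes other than the 5 were not counted in this way.

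Shares of cells with a UMI of each gene were compared at the same depth, for which 93046 cells were thinned and 8642 shallower cells left out. Here the Il17 class of a cell was taken from its full counts, and only the UMIs of the 5 genes were thinned. Of Il17-positive cells, 7.5% ± 0.757 (SD, n = 8) had a Rora UMI, against 3.44% ± 0.553 of negative cells. The shares were 16.5% ± 3.29 and 9.23% ± 1.13 for Batf, and 13.0% ± 1.94 and 10.1% ± 1.65 for Irf4. For these 3 genes the positive cells were higher in 8 of 8 libraries, with an exact two-sided sign-flip permutation p of 0.0078, the smallest that 8 libraries allow. For Maf the shares were 3.75% ± 1.72 and 5.02% ± 1.33 (exact permutation p = 0.023, higher in 1 of 8 libraries), and for Runx1 4.96% ± 0.450 and 4.25% ± 0.991 (exact permutation p = 0.055). These are 5 tests with unadjusted p-values, and the shares of other genes were not compared, so no background stands beside them. Without thinning, the shares were 19.1% and 7.5% for Rora, 38% and 19.0% for Batf, 33.1% and 20.4% for Irf4, 9.87% and 10.3% for Maf (exact permutation p = 0.56), and 13.0% and 9.31% for Runx1 (exact permutation p = 0.016). For Maf and Runx1 the outcome therefore depended on whether cells were thinned, with the Runx1 p at 0.49 when cells were thinned to 3000 UMIs.

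Other genes of the Th17 program gave the setting, against the 17.1% of all genes that rose and the 17.6% that fell. Of 10 tested genes of the cytokine and receptor list, which also holds Tmem176a and Tmem176b, 5 rose in positive cells. They included Il22 (3.79 on the log2 scale), Ccr6, the chemokine receptor of Th17 cells (2.92), Il24 (2.62) and Il23r, a receptor subunit for IL-23 (1.89). The other 3 that passed fell, including Tmem176a by 0.74 and Il6st, the shared IL-6 receptor chain, by 0.46. Over all kept cells of a library, Ccr6 was at 0.043 to 1.65 CPM and Il23r at 1.23 to 2.26 CPM, so their folds rest on few UMIs. Of 14 other positive regulators, 5 rose and 3 fell, counts too near the shares of all genes to be read as a result. Sox5 (0.96), Bhlhe40 (0.74) and Junb, the JUN protein with which BATF pairs in Th17 cells (0.46), were among those that rose, and Ikzf3 fell by 0.75. Of 11 regulators that restrain Th17 cells, 7 fell with edgeR, led by Klf2, a factor of resting T cells (fell by 1.85), and Tcf7 (fell by 0.95). In this list 0 rose, also at an unadjusted p under 0.05 and with DESeq2, which called 4 lower. The medians of the 3 lists, in the order given, were 0.98, 0.06 and -0.34 on the log2 scale, against -0.0036 over all genes tested.

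Relatives and partners of the 5 factors did not share 1 direction. The same background of 17.1% higher and 17.6% lower applies, and the counts of these short lists are given as a description. Of 14 genes of the BATF, IRF4 and JUN group, 4 rose and 5 fell, with a median of -0.13. Batf3, a close relative of Batf, rose by 0.79 (0.14 with an adjusted p of 0.17 in cluster 2 alone), and Junb by 0.46. Irf2 fell by 0.92 and Irf1 by 0.71, both interferon regulatory factors that bind related DNA elements. Of 4 RUNX partners and relatives, Runx3 rose by 0.12 (edgeR adjusted p = 0.015), a call that ended in cluster 2 alone (-0.06, adjusted p = 0.48), with cells thinned (0.11, adjusted p = 0.40) and without WT Th17 replicate 1 (0.09, adjusted p = 0.13). Of 5 tested genes for MAF relatives or for partners of small MAF proteins, 3 fell. They were the partner genes Bach1 (by 1.38) and Nfe2l2 (by 0.31) and the relative Maff (by 0.50). The Maff call ended with DESeq2 (adjusted p = 0.082) and without WT Th17 replicate 1, WT Th22 replicate 1 or WT Th22 replicate 2 (-0.47, -0.36 and -0.46, adjusted p = 0.075 to 0.16). The median over these 5 genes was -0.31 on the log2 scale, which is the Nfe2l2 value, against -0.0036 over all genes tested.

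Whether the Il17 contrast differed between genotypes or cultures was tested with terms in the same fit. For genotype, 0.629% of 11600 genes passed and none of the 5 did. The largest difference was that of Batf, 0.18 ± 0.08 on the log2 scale (SE, edgeR adjusted p = 0.41), with ratios of 1.48 to 1.58 in WT and 1.64 to 1.85 in KO libraries. For culture, 0.293% of genes passed and again none of the 5. Rora came nearest, with a contrast larger by 0.38 ± 0.11 in Th22 than in Th17 (SE, edgeR adjusted p = 0.095). This passed when KO Th22 replicate 1 (0.45, adjusted p = 0.024) or WT Th17 replicate 1 (0.46, adjusted p = 0.049) was left out. In each of these tests 1 of the 5, Batf and then Rora, was at an unadjusted p under 0.05, and DESeq2 called 0.

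Across the 12 deposited clusters, whose numbers are the authors' and which were made from these same cells, the levels are given without a test. Rora was at 49.7 ± 5.70 CPM (SD, n = 8) in cluster 2, higher there than in each of the 11 other clusters in all 8 libraries. How many of all genes did so, or did not overlap the next cluster in range, was not counted. The next cluster, 5, was at 28.4 ± 7.27 CPM and its range did not overlap that of cluster 2. Below it the neighbouring clusters did not differ beyond their spread, down to 12.6 ± 4.44 CPM in cluster 7, which is led by the γδ receptor and cytotoxic genes Trdc, Gzmc and Klrd1. Batf was also highest in cluster 2, at 113.5 ± 26.4 CPM, followed by cluster 11 at 91.0 ± 30.0 and with cluster 4 lowest at 56.3 ± 9.54. Irf4 had the same leading clusters, 2 (100.6 ± 10.3 CPM) and 11 (95.2 ± 26.7), and its lowest levels in clusters 7 (43.9 ± 12.4) and 9 (41.8 ± 15.9). For both genes the libraries' ranges of neighbouring clusters overlapped, and the means differed beyond 1 SD only between clusters 0 and 7 for Irf4.

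Maf followed another order. It was highest in cluster 4, led by Csta2, Cstdc4 and Gap43, at 65.8 ± 7.28 CPM (SD, n = 8), from 52.8 CPM in WT Th17 replicate 2 to 75.7 CPM in KO Th17 replicate 1. The next cluster, 0, was at 38.8 ± 11.2 CPM, a gap larger than the spread although the ranges touched. In cluster 2 Maf was the eighth highest, at 26.6 ± 6.85 CPM. Runx1 was highest in cluster 11 (40.8 ± 9.78 CPM) and lowest in cluster 7 (13.7 ± 3.38 CPM), with cluster 2 at 32.8 ± 6.42 CPM. Cluster 11 held 539 cells, of which 11.3% were Il17-positive, against 27.6% in cluster 2 and 1.17% in cluster 0.

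**Figure D3:**
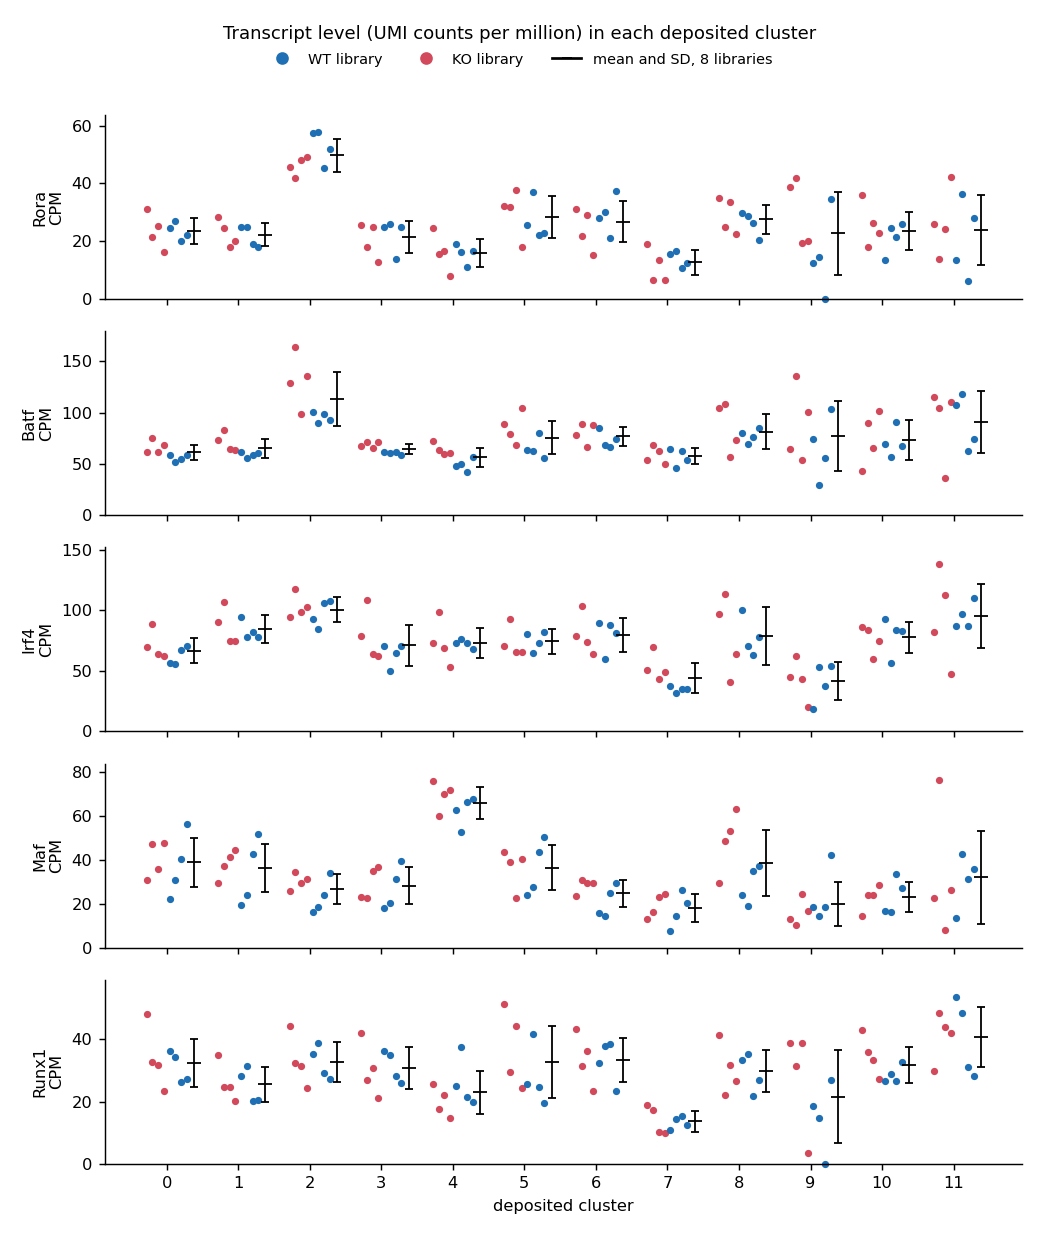
Level in CPM (vertical axes) of the 5 genes in the 12 deposited clusters (horizontal axis), 1 point for each of 8 libraries (blue WT, red KO) with the mean and SD in black. Rora stands at 49.7 CPM in cluster 2 and Maf at 65.8 CPM in cluster 4, each above the other clusters' means, while Runx1 spreads from 13.7 to 40.8 CPM with overlapping neighbours.

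The genes most like each of the 5 over the libraries and clusters were named by Pearson correlation. It was taken over 79 sums of 1 library and 1 cluster with at least 100 cells, centred within library, among 6408 genes. These points share libraries and the clustering, so the values describe these sums only. Rora was most like Smox, a polyamine oxidase gene (r = 0.83), Rgcc (0.80) and Prdx2 (0.79). Batf was most like Timp1 (r = 0.78), Rora (0.74) and Prdx2 (0.73). Irf4 was most like Cd5 (r = 0.82), Cd4 (0.77) and Pou2f2 (0.76), and Runx1 most like Jak2 (0.83), Cd4 (0.81) and Btla (0.78). Maf was most like Fkbp1a (r = 0.71), Rpl12 (0.63) and Izumo1r (0.61), and stood apart from Rora (-0.05) and Batf (-0.24).

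The genotype comparison asked whether the knockout of Gpr65 changed these factors in the whole culture. In such sums over all cells, fewer cells of a type and less RNA per cell cannot be told apart. Of 13412 genes tested over both cultures, 2.93% passed an adjusted p of 0.05 and none of the 5 did, by edgeR or by DESeq2. Batf was at an unadjusted p under 0.05, the only 1 of the 5. Without 1 library at a time the number of genes that passed ran from 50 to 541, against 393 with all 8, and the 5 genes stayed at 0.

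**Figure D4:**
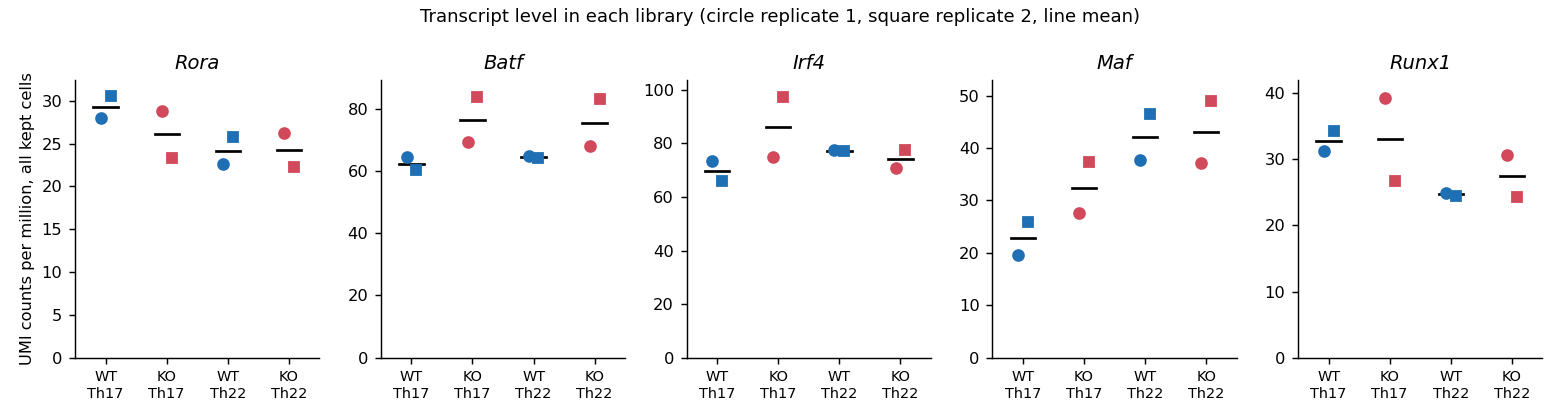
Level in CPM over all kept cells (vertical axes) of the 5 genes in WT (blue) and KO (red) libraries of Th17 and Th22 cultures (horizontal axes); circles are replicate 1, squares replicate 2 and lines the mean of 2 libraries. The 4 KO libraries of Batf lie above the 4 WT libraries, and Maf lies at 19.6 and 25.9 CPM in WT Th17 against 37.8 and 46.5 CPM in WT Th22.

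Batf came nearest to the threshold. It was at 64.4 and 60.4 CPM in WT Th17, 64.7 and 64.3 CPM in WT Th22, 69.2 and 83.9 CPM in KO Th17, and 67.9 and 83.3 CPM in KO Th22. All 4 KO libraries lay above all 4 WT libraries, with replicate 2 the higher in both KO groups, as did 5.7% of genes tested. The fitted difference was 0.26 ± 0.09 (log2, SE, edgeR adjusted p = 0.16), and over its 15 alternatives the adjusted p ran from 0.068 to 0.64. The share of cells with a Batf UMI, thinned to 1500 UMIs, was 10.2% ± 1.13 in KO and 8.91% ± 0.662 in WT (SD, n = 4, exact permutation p = 0.17, where the smallest possible is 0.056). Not thinned, it was 20.7% in KO and 18.8% in WT.

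Irf4 was at 73.4 and 65.8 CPM in WT Th17, 77.7 and 77.0 CPM in WT Th22, 74.8 and 97.3 CPM in KO Th17, and 70.7 and 77.7 CPM in KO Th22. KO Th17 replicate 2 was the highest of the 8, and over both cultures the genotypes overlapped (0.12 ± 0.11, log2, SE, edgeR adjusted p = 0.60). In Th17 both KO libraries lay above both WT libraries, as in 20.9% of genes tested. The Irf4 difference was 0.31 ± 0.14 in Th17 (log2, SE, edgeR adjusted p = 0.44) and -0.06 ± 0.14 in Th22 (edgeR adjusted p = 0.89). Rora was at 28 and 30.5 CPM in WT Th17, 22.6 and 25.7 CPM in WT Th22, 28.9 and 23.4 CPM in KO Th17, and 26.2 and 22.3 CPM in KO Th22. The genotypes overlapped in both cultures, and the difference was -0.08 ± 0.10 (log2, SE, edgeR adjusted p = 0.72) with a 95% interval from -0.30 to 0.14. Runx1 ranged from 24.5 to 34.2 CPM in WT and from 24.2 to 39.2 CPM in KO libraries (0.08 ± 0.13, log2, SE, edgeR adjusted p = 0.79, 95% interval from -0.21 to 0.37).

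Maf was at 19.6 and 25.9 CPM in WT Th17, 37.8 and 46.5 CPM in WT Th22, 27.6 and 37.3 CPM in KO Th17, and 37.2 and 49.0 CPM in KO Th22. In Th17 both KO libraries lay above both WT libraries, as in 20.9% of genes tested. The difference was 0.51 ± 0.22 (log2, SE, edgeR adjusted p = 0.40), where 0.186% of genes passed. In Th22 the difference was 0.03 ± 0.21 (log2, SE, edgeR adjusted p = 0.97), where 0.149% of genes passed. None of the 5 passed in either culture with edgeR or DESeq2, and Maf in Th17 was the only one at an unadjusted p under 0.05. The difference between these 2 effects, -0.48 ± 0.30 for Maf, did not pass either (edgeR adjusted p = 1.0), in a test of genotype by culture that called 0% of genes with edgeR, 566 of the 13412 at an unadjusted p under 0.05, and 12 genes with DESeq2.

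Between cultures, Th22 against Th17 over both genotypes, 1.94% of 13412 genes passed and none of the 5. Maf was again the nearest, with a mean of 42.6 ± 6.0 CPM in Th22 and 27.6 ± 7.30 CPM in Th17 (SD, n = 4). The highest Th17 library, KO Th17 replicate 2, and the lowest Th22 library, KO Th22 replicate 1, were both at about 37 CPM, so the cultures met at that level. The difference was 0.64 ± 0.16 (log2, SE, edgeR adjusted p = 0.098). It passed with DESeq2 (0.64, adjusted p = 0.0077), and with edgeR when KO Th17 replicate 2 (0.79, adjusted p = 0.045) or KO Th22 replicate 1 (0.77, adjusted p = 0.039) was left out. Over the 15 alternatives its adjusted p ran from 0.0059 to 0.31 and its direction did not change. Runx1 was at 32.9 ± 5.26 CPM in Th17 and 26.1 ± 3.06 CPM in Th22 (-0.34 ± 0.13, log2, SE, edgeR adjusted p = 0.26), and Rora at 27.7 ± 3.06 and 24.2 ± 2.05 CPM (-0.19 ± 0.10, edgeR adjusted p = 0.42). With 1 block for each genotype and replicate number, 11.9% of genes passed (1592) and 2 of the 5, Maf (0.65, edgeR adjusted p = 0.0059) and Runx1 (-0.33, edgeR adjusted p = 0.0071). Within the 4 pairs of the same genotype and number, Maf was higher in Th22 in 4, Runx1 in 0 and Rora in 0. Runx1 went from 39.2 to 30.6 and from 26.7 to 24.2 CPM in KO, and from 31.3 to 24.9 and from 34.2 to 24.5 CPM in WT. The labels do not say that the numbers pair the cultures. Without the block, Batf (0.01 ± 0.09) and Irf4 (-0.03 ± 0.11) did not pass either, with 95% intervals from -0.19 to 0.22 and from -0.29 to 0.22.

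Among Il17-positive cells alone, knockout and wild type were compared over 9470 genes, of which 0.961% passed. Of the 5, Batf passed. It was at 94.2 and 92.0 CPM in WT Th17, 102.4 and 95.3 CPM in WT Th22, 130.9 and 140.6 CPM in KO Th17, and 114.8 and 144.1 CPM in KO Th22. The lowest KO library lay above the highest WT library, as in 2.9% of genes tested. The difference was 0.50 ± 0.10 (log2, SE, edgeR adjusted p = 0.017), a 1.42-fold higher level, from 194 to 433 positive cells in each KO library and 646 to 969 in each WT library.

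This call was near the threshold. With cells thinned to 1500 UMIs it was lost (0.40, adjusted p = 0.42). It was also lost with 7 libraries when the one left out was KO Th17 replicate 1 (0.50, adjusted p = 0.069), KO Th17 replicate 2 (0.46, 0.088), KO Th22 replicate 2 (0.45, 0.088), WT Th17 replicate 1 (0.49, 0.10), WT Th17 replicate 2 (0.47, 0.055) or WT Th22 replicate 2 (0.49, 0.084). In cluster 2 alone it passed at 0.54 (adjusted p = 0.010), and among cells with at least 2 Il17 UMIs at 0.61 (adjusted p = 0.00246). As given above, the difference between the genotypes in the positive minus negative contrast did not pass for Batf.

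The other 4 genes did not pass among positive cells. Maf was at 0.26 ± 0.20 (log2, SE, edgeR adjusted p = 0.72), Irf4 at 0.13 ± 0.12 (0.77), Rora at 0.07 ± 0.13 (0.90) and Runx1 at 0.05 ± 0.15 (0.95). Rora had 44.6 and 48.9 CPM in KO Th17, 50.9 and 63.8 CPM in KO Th22, 51.3 and 48.6 CPM in WT Th17, and 49.0 and 54.5 CPM in WT Th22. The KO values thus lay on both sides of the WT values, and the 95% interval of the difference ran from -0.19 to 0.33.

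**Figure D5:**
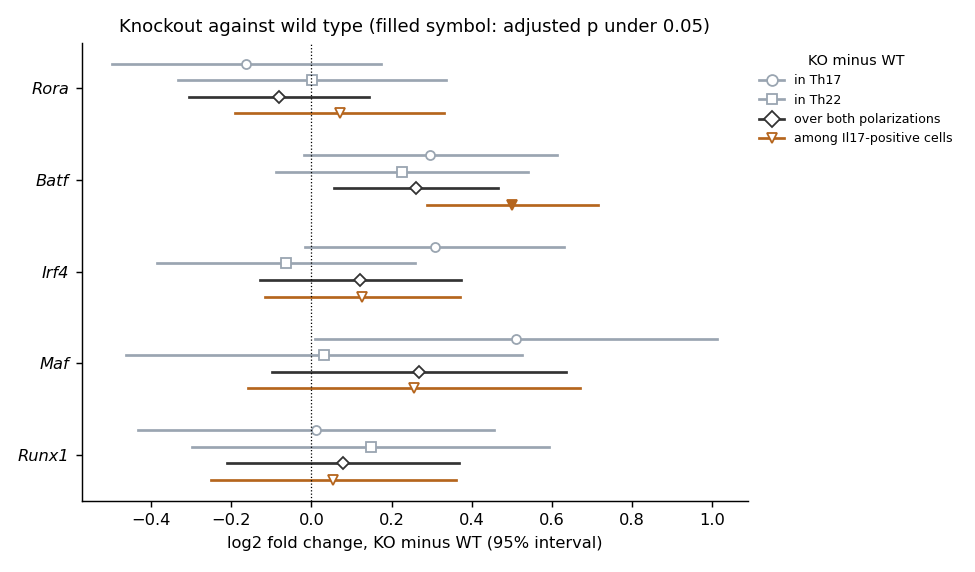
Log2 fold change of KO minus WT (horizontal axis) with unadjusted 95% intervals for the 5 genes in Th17, in Th22, over both cultures and among Il17-positive cells; a filled symbol marks an adjusted p under 0.05. The 1 filled symbol is that of Batf among Il17-positive cells, at 0.50, and the intervals of Rora and Runx1 include 0 throughout.

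Within single clusters, 12 fits of knockout against wild type gave 54 tests of the 5 genes and 0 passed with edgeR, where 1.59% of all gene tests passed (0.198% to 7.43% per cluster). When KO Th22 replicate 1 was left out 2 of the tests passed, those of Batf in cluster 1 (0.33, adjusted p = 0.025) and in cluster 2 (0.60, adjusted p = 0.0019). Batf was higher in KO by sign in 11 of the 12 clusters, with 0.46 ± 0.13 (log2, SE, adjusted p = 0.095) in cluster 2 and 0.28 ± 0.08 (adjusted p = 0.058) in cluster 1. The largest estimates of the 54 were those of Maf in cluster 8 (0.78 ± 0.23, log2, SE, adjusted p = 0.18) and Irf4 in cluster 7 (0.60 ± 0.18, adjusted p = 0.34). Maf was higher by sign in 9 of 10 clusters, Irf4 in 8 of 11, Runx1 in 7 of 11 and Rora in 5 of 10. The clusters share their libraries, so these counts are not independent. The share of all genes that keep 1 sign in as many clusters was not counted. In cluster 2 Batf was at 128.8, 164.0, 98.2 and 135.3 CPM in the KO libraries and at 100.4, 89.9, 98.9 and 92.7 CPM in the WT libraries, so KO Th22 replicate 1 lay within the WT range.

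Genes around these factors differed by genotype. Il17a was at 5.02 to 12.9 CPM in KO and 16.1 to 39.8 CPM in WT libraries (fell by 1.74 on the log2 scale, edgeR adjusted p = 0.00025). Of 12 tested genes of the cytokine and receptor list, 6 fell in KO, against a background of 1.41% higher and 1.52% lower. Il24 fell most (by 1.97). The others were Il17a, Il17f, Tmem176a, Tmem176b and Il6ra. In that list 0 rose, also at an unadjusted p under 0.05 and with DESeq2. Of 14 other positive regulators 2 fell, Hif1a by 0.47 and Satb1 by 0.41. Of 13 restraining regulators Tbx21, which encodes the Th1 factor T-bet, rose by 1.16, and Tcf7, Klf2 and Ets1 fell by 0.56, 0.80 and 0.45. Tbx21 was low, at 2.40 to 5.41 CPM in KO and 1.11 to 2.84 CPM in WT libraries. Among RUNX partners and relatives Runx3 fell by 0.43. Of 14 genes of the BATF, IRF4 and JUN group 0 passed with edgeR or DESeq2, and 2 were lower at an unadjusted p under 0.05. The calls of Il17a, Il24 and Tmem176a held with any 1 library left out. With 1 of the 8 left out in turn the call ended in 3 fits each for Il17f and Hif1a, 5 each for Tmem176b and Tcf7, 6 each for Il6ra, Tbx21 and Runx3, and 7 each for Satb1, Klf2 and Ets1, at adjusted p-values of 0.050 to 0.18 and with the same sign. Among positive cells Fosl2, a FOS-related gene, fell by 0.75 (edgeR adjusted p = 0.025), which ended in 6 of these 8 fits (adjusted p = 0.051 to 0.16).

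Cluster shares and marker levels also differed by genotype. Cluster 2 held 7.03% to 7.60% of kept cells in KO and 11.4% to 13.0% in WT libraries. The γδ and cytotoxic cell markers, of which 11 of 12 are in the matrix and Ncr1 is not, summed to 94.0 to 122.5 CPM in KO and 56.2 to 87.1 CPM in WT libraries, but 1 of 11 tested passed, and the list's median was 0.029 on the log2 scale, with 6 of 11 higher by sign. The gene that passed was Nkg7, a cytotoxic granule gene, at 58.8 and 70.5 CPM in KO Th17, 42.7 and 58.7 in KO Th22, 20.9 and 24.2 in WT Th17, and 14.8 and 20.4 in WT Th22 (1.52 on the log2 scale, edgeR adjusted p = 0.0015). Without Nkg7 the other 10 summed to 36.4 to 72.1 CPM in KO and 41.4 to 66.3 CPM in WT libraries, which overlapped. CD4 T cell markers summed to 3946 to 4028 CPM in KO Th17 against 4506 to 4577 CPM in WT Th17, and to 4581 to 4739 CPM in KO Th22 against 5203 to 5446 CPM in WT Th22. B cell markers summed to 28.6 to 34.1 CPM in KO and 36 to 49.4 CPM in WT libraries. Myeloid markers summed to 21.2 to 33.1 CPM in all libraries, with Lyz2, Adgre1 and C1qa not in the matrix. The part of these levels in the genotype results was not tested, and the Batf values within clusters are those given above.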

How the data were processed

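Single-cell RNA libraries were made with the Chromium 3' kit (v3), per the labels' protocols, and the submitters' processing notes name Cell Ranger 5.0.1, Seurat and build mm10. The authors deposited UMI counts per gene and cell, unnormalized, and a cell table with library names, cluster numbers and the percent of mitochondrial counts, which the authors deposited too. No source used here says how doublets were treated. None were removed, and an alternative left out the 8% of cells with most UMIs in each library. Counts were summed per library, and per Il17 class or cluster. Sums were tested with edgeR 4.0.16 (TMM, filterByExpr, robust quasi-likelihood F test, Benjamini-Hochberg over all genes tested, threshold 0.05) in R 4.3.3, with DESeq2 1.42.0 as an alternative. CPM is a gene's count per 1000000 counts of the sum, TMM-scaled for genes by library and Il17 class and unscaled for clusters, Il17 UMI classes and marker sums. Replicate differences correlated over genes at 0.57 between KO cultures and 0.23 between WT cultures, but at -0.25 to -0.18 across genotypes, so a block within genotype is given beside the culture result. Scripts were tested on simulated data. Named genes were the 5 members, Gpr65, Il17a and Il17f, up to 4 genes per list that passed by smallest adjusted p, and the 3 most correlated genes per member. A gene taken by this rule may be left unreported here. Some listed genes beyond it are also named, among them Il22, Tmem176a, Il6st and Trdc. The members and lists were chosen with earlier results of these data known.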

Additional observations from a re-analysis of the deposited data

Results flagged for a closer look

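In 35 groups of values of the 5 genes (levels by genotype and by culture, 4 libraries each, and levels and ratios by Il17 class over 8 libraries), 4 held a library far from the others by Dixon's test at the 95% level, where chance gives about 1 in 20. Batf stood at 60.4 CPM in WT Th17 replicate 2, below the other WT libraries at 64.3 to 64.7 CPM. KO Th22 replicate 1 was apart from the other Th22 libraries for Irf4, at 70.7 CPM against 77.0 to 77.7 CPM, and for Runx1, at 30.6 CPM against 24.2 to 24.9 CPM. Irf4 in Il17-negative cells was at 100.0 CPM in KO Th17 replicate 2, above the other 7 libraries at 67.0 to 80.0 CPM.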

How the results depend on the processing

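Of 241 fold changes of the 5 genes under alternatives other than leaving out a library, 227 kept direction and call, 2 lost a call, 4 gained one and 8, all uncalled, changed sign; the cause was not tested. Genes called over both cultures by genotype (393) were 942 with DESeq2, 242 thinned to 1500 UMIs and 6 with libraries summed by genotype and number. By genotype in Th17 (25), they were 206 with DESeq2, 42 without a filter and 16 from the 4 Th17 libraries alone; in Th22 (20), 143 with DESeq2, 6 thinned, 11 without the 8% deepest cells and 4 from the 4 Th22 libraries. By culture (260) DESeq2 called 553 genes and 1 of the 5, and in the interaction (0) 12 genes. By Il17 class (4031), 1888 were called thinned, 2453 in cells of 3000 to 6000 UMIs, 1323 in cluster 2 and 1583 outside it. Its difference by genotype (73) gave 38 with Il17a only, 14 thinned, 33 in cells of 3000 to 6000 UMIs, 27 in cluster 2, 30 outside it and 30 with DESeq2; by culture (34) 19 with Il17a only, 0 thinned, 4 in cluster 2, 17 outside it and 12 with DESeq2. By genotype among positive cells (91), 56 were called with at least 2 Il17 UMIs, 49 thinned, with 0 of the 5, and 211 without a filter.

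With the replicate number as a block, 9 genes were called in Th17 and 6 in Th22, and 1 of the 5 by culture, Maf (0.65, adjusted p = 0.037). A block within genotype gave 1592 genes by culture and 2 of the 5, Maf (0.65, adjusted p = 0.0059) and Runx1 (-0.33, adjusted p = 0.0071). Without the library block, 2145 genes differed by Il17 class. Under the block the Runx1 genotype effect in Th17 was -0.012 and that of Rora in Th22 -0.0029. No call of the 5 was lost under the block.

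Other signs that changed were Runx1 by genotype in Th17 thinned (-0.0071), Rora in Th22 from 4 libraries (-0.00018), and by Il17 class Runx1 with Il17a only (-0.023), in cluster 2 (-0.0064) and outside it (-0.00040), Runx3 in cluster 2 (-0.060) and Batf's class difference by genotype in cluster 2 (-0.0089). Not thinned, the share of cells differed by Il17 class by -0.441 points for Maf and 3.69 for Runx1, and by genotype by -0.0363 for Runx1.

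With 1 library left out, genes called ran from 50 to 541 by genotype, 3 to 54 in Th17, 1 to 14 in Th22, 54 to 247 by culture (0 to 1 of the 5), 3422 to 4059 by Il17 class, 29 to 128 and 21 to 48 (0 to 1 of the 5) for its differences by genotype and culture, and 21 to 173 (0 to 1 of the 5) among positive cells; within clusters 0 to 2 tests of the 5 passed. Log2 differences by genotype that crossed 0 ran from -0.025 to 0.19 for Runx1 over both cultures and from -0.29 to 0.26 in Th17. In Th22 they ran from -0.12 to 0.12 for Rora, -0.17 to 0.22 for Maf, -0.13 to 0.0081 for Irf4 and -0.027 to 0.31 for Runx1. Among positive cells they ran from -0.042 to 0.11 for Rora, -0.0049 to 0.44 for Maf and -0.045 to 0.13 for Runx1. By culture Batf ran from -0.042 to 0.078 and Irf4 from -0.10 to 0.084. Shares without 1 library, an alternative chosen after seeing the data, differed by Il17 class by -1.49 to -1.01 points for Maf and 0.606 to 0.865 for Runx1, and by genotype by -0.431 to 0.0665 for Rora, -0.0045 to 1.47 for Irf4 and -0.309 to 0.687 for Runx1.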
